A study of Mus musculus with 12 samples.

Results

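Perivascular progenitors, taken from the thoracic aorta with its surrounding fat, were compared with DPP4+ progenitors sorted from inguinal white fat, the subcutaneous fat of the groin. The members are 6 of the 12 libraries in the series, 3 from each of these 2 populations, and all 18855 of 31099 genes in the count table that passed a filter on low counts. All 6 libraries came from CD-1 mouse pups, an outbred strain, at postnatal day 3 with both sexes mixed, and the labels give no genetic change or treatment for any group. Each library was made from the pooled tissue of several pups, and a perivascular and an inguinal library with the same replicate number came from the same pool. The other 6 libraries, perivascular preadipocytes and inguinal ICAM1+ preadipocytes from the same pools, entered the fit and serve for 1 comparison at the end. The inguinal cells were sorted as DPP4+, while the sources used here do not give the surface markers of the perivascular progenitor sort. Depot and sort gate therefore cannot be told apart in any value below. Dpp4 itself, which the inguinal sort used, is described and is no finding. It was left in the counts of genes and in the count and median of the interstitial progenitor list.

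Fat cells form from fibroblast-like progenitors that carry the PDGF receptor Pdgfra. In subcutaneous fat of the mouse, DPP4+ cells of the connective tissue between fat lobules are known to give rise to ICAM1+ preadipocytes, which then become fat cells. Perivascular fat of the thoracic aorta resembles brown fat, the heat-producing type, whereas inguinal fat is white and can take on brown features in the cold.

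Levels are in CPM, counts divided by the effective library size from edgeR's TMM factors, and always in the order of libraries 1, 2 and 3. CPM is not corrected for gene length, so levels are compared between libraries and not between genes. Changes are log2 fold changes of perivascular over inguinal progenitors, with the standard error (SE) of the fit. A gene rose or fell where edgeR's quasi-likelihood test, with Benjamini-Hochberg adjustment over all 18855 genes, gave an adjusted p under 0.05.

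The 6 libraries held 16211157 to 18191251 counts each. Col3a1, which encodes the type III collagen chain, took 15.5 to 16.9% of all counts in the inguinal libraries and 6.95 to 11.3% in the perivascular ones, and the TMM factors were 0.744 to 0.814 in the former and 1.03 to 1.07 in the latter. Correlations of log2 CPM across genes, which are no independent replicates, were 0.956 to 0.984 within a group and 0.899 to 0.924 between groups. Perivascular library 1 stood apart from perivascular libraries 2 and 3, and inguinal library 2 held more RNA of mast and myeloid cells than inguinal libraries 1 and 3. Perivascular preadipocyte library 1 also stood apart in its group, and these 3 libraries are left out together in 1 alternative, chosen after the data were seen. Results that rest on a single library are given with and without it.

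Both populations carried the genes of fibroblast-like progenitors. Pdgfra, the receptor that marks fat progenitors, was at 388, 665 and 716 CPM in the perivascular libraries and at 485, 544 and 449.9 in the inguinal ones (log2 0.26 ± 0.27 SE, adjusted p = 0.536), and the groups overlapped. It was called higher only with the 3 libraries that stood apart left out (log2 0.56, adjusted p = 0.0268). Of 10 fibroblast markers tested 6 fell (60%, against 24.9% of all genes called). Among them were Thy1, Ly6a and Cd34, which encode cell surface proteins of many mesenchymal cells. Thy1 was at 3.92, 6.16 and 4.33 CPM in the perivascular against 95.9, 83.7 and 111 CPM in the inguinal libraries (log2 -4.33 ± 0.32 SE, adjusted p = 1.34e-06). Dpp4 was present in both populations, at 88.9, 97.2 and 82.1 CPM in the perivascular and 1593, 1476 and 1460.5 CPM in the inguinal libraries.

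Markers of other cell types were present. Each sum below is over every gene of a list in the count table, and each count over those tested. The shares called were 81.8% of mast cell, 60% of myeloid, 42.9% of endothelial, 63.6% of Schwann and neural and 61.5% of keratinocyte markers. They were 45.5% of pericyte, 80% of mesothelial, 42.9% of smooth muscle and 50% of cartilage and tendon markers, against 24.9% of all genes. Summed over 14 mast cell markers, of which 11 were tested, the level was 13.5, 17.4 and 17.5 CPM in the perivascular and 92.7, 351 and 85.0 CPM in the inguinal libraries, and 9 of the 11 fell. Summed over 20 macrophage and myeloid markers it was 36.5, 88.1 and 37.2 against 92.8, 284 and 78.8 CPM, and 12 fell. Inguinal library 2 was the highest in both lists, and without it 4 of the 20 myeloid markers fell, and 8 of the 11 mast cell markers did, while 8 myeloid markers fell without perivascular library 3. Endothelial markers summed to 296, 305 and 447 against 884, 1088 and 852 CPM (1 of 14 rose and 5 fell, 2 without inguinal library 2), of which Tek was the larger share in the inguinal libraries. Schwann and neural markers summed to 43.7, 52.4 and 50.9 against 90.4, 178 and 108 CPM (2 of 11 rose, 5 fell), and keratinocyte and epithelial markers to 38.05, 31.4 and 27.2 against 423, 352 and 466 CPM (2 of 13 rose and 6 fell, with 3 falls without inguinal library 2, 4 without perivascular library 2 or 3, 3 with library totals, and 1 rise without inguinal library 1 or 2 or perivascular library 1). Pericyte markers summed to 439.9, 639 and 705 against 902, 975 and 911 CPM (3 of 11 rose and 2 fell, and 1 rose without any 1 of inguinal libraries 1 and 3 and perivascular libraries 2 and 3, or of the inguinal preadipocyte libraries, and 2 with the pools as a block). Higher sums in the perivascular libraries were found for mesothelial markers, at 199, 319 and 269 against 46.7, 52.5 and 50.4 CPM (11 of 15 rose and 1 fell, a fall lost without inguinal library 2, perivascular library 1 or 3 or any 1 ICAM1+ library), smooth muscle markers, at 839, 945 and 919.5 against 488, 668 and 485 CPM (5 of 14 rose and 1 fell, and 3 rose without inguinal library 1 or 3 or perivascular library 2), and cartilage and tendon markers, at 157, 154 and 177 against 48.1, 55.2 and 73.2 CPM (5 of 14 rose, 2 fell). Some of the sums were also taken without the 1 gene whose mean level differed most between the groups, which was a choice made after the values were seen. Without Tek, endothelial markers summed to 199, 196 and 309 CPM in the perivascular and 177, 357 and 237 CPM in the inguinal libraries. Without Kcnj8, pericyte markers summed to 292, 515 and 569 against 408, 515 and 385 CPM, and without Mbp, Schwann and neural markers to 41.1, 45.998 and 45.2 against 39.4, 84.1 and 48.5 CPM. The groups overlapped in all 3 of these. Without Krtdap, keratinocyte and epithelial markers summed to 25.3, 19.5 and 18.3 against 41.9, 42.9 and 45.2 CPM, still without overlap, and Krtdap made up most of the inguinal sums. No listed marker of these types that is in the count table was at 0 in all 6 libraries. The part of such cells in the results below was not tested, and in sorted bulk samples fewer cells of a type and less RNA per cell cannot be told apart.

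**Figure D1:**
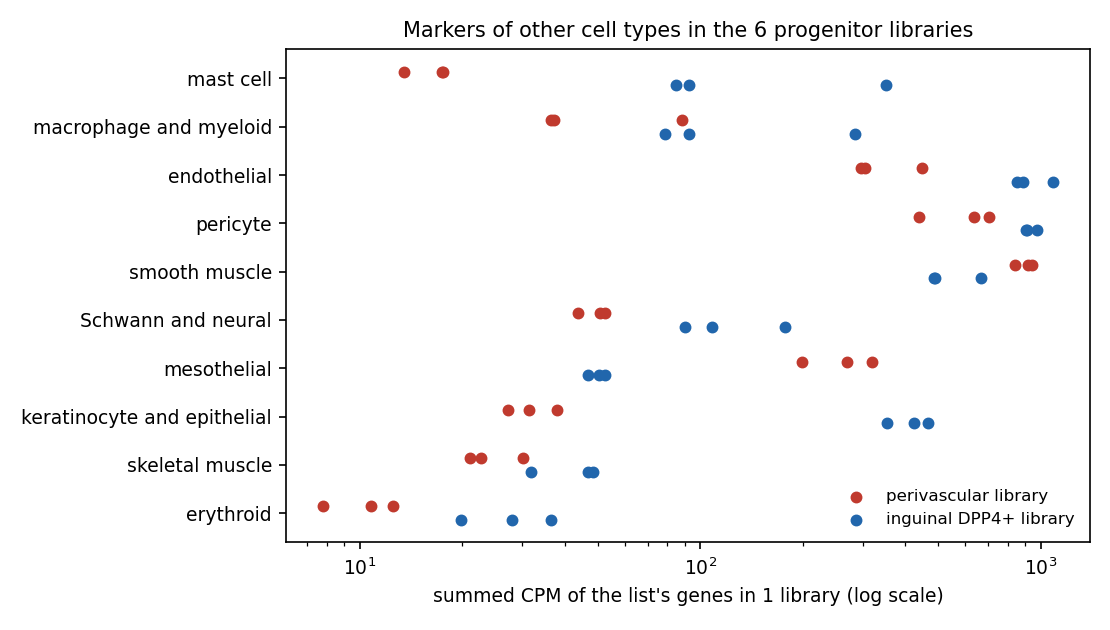
Summed CPM of the genes of 10 marker lists (vertical axis) in each of the 6 progenitor libraries, on a log scale (horizontal axis). Each point is 1 library, red for perivascular and blue for inguinal. Mast cell sums lie at 13.5 to 17.5 CPM in the perivascular and 85.0 to 351 CPM in the inguinal libraries, and mesothelial sums at 199 to 319 against 46.7 to 52.5 CPM.

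A pair of mesothelial genes had almost no counts in the inguinal cells. Upk1b, a uroplakin of the mesothelial surface, was at 12.9, 28.1 and 22.6 CPM in the perivascular libraries and had 2 counts in the 3 inguinal libraries together, a ratio of 411 (95% counting interval 114 to 3400.0). Wt1, a transcription factor of the mesothelium, was at 9.03, 11.3 and 8.55 CPM against 1 inguinal count, a ratio of 377 (95% counting interval 67.4 to 14900.0). Both intervals cover counting error only. Msln (mesothelin) was at 39.3, 71.5 and 61.0 CPM in the perivascular and 1.0001, 1.37 and 0.492 CPM in the inguinal libraries, with perivascular library 1 the lowest of its group for Upk1b and Msln. Of the mast cell genes, Tpsb2 encodes a tryptase and was at 0.155, 0 and 0.108 CPM in the perivascular and 20.7, 93.3 and 19.03 CPM in the inguinal libraries (log2 -8.83 ± 0.86 SE, adjusted p = 1.16e-05). Its change was log2 -7.68, adjusted p = 2.38e-06 without inguinal library 2 and log2 -9.47, adjusted p = 3.64e-05 without perivascular library 1. Its near-identical neighbour Tpsab1 may share reads with it.

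Of the 18855 genes, 4687 differed (24.9%), 2459 of them higher in perivascular progenitors (13% of the genes tested) and 2228 lower (11.8%). Calls were 52.5% higher with TMM scaling and 83.7% higher with library totals as the scale, which moved the median of all genes from 0.05 to 0.48. At least a 2-fold change was found for 1755 higher and 1402 lower genes. All 3 libraries of 1 group lay above all 3 of the other for 4614 of the called genes. The same held for 7968 of all 18855 genes tested (42.3%), so a lack of overlap was common without a call as well. Of protein-coding genes 27.6% differed, of lincRNA genes 25.7% and of processed pseudogenes 7.18%. The share of all genes called, 24.9%, is the base for each list share given in the text. It covers all gene types, while most lists hold protein-coding genes, of which 27.6% differed. The lists were also chosen with earlier results of these data known. A share above the base therefore does not by itself set a list apart. For 1626 genes (8.62%) the 95% interval of the log2 change lay inside -0.5 to 0.5.

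**Figure D2:**
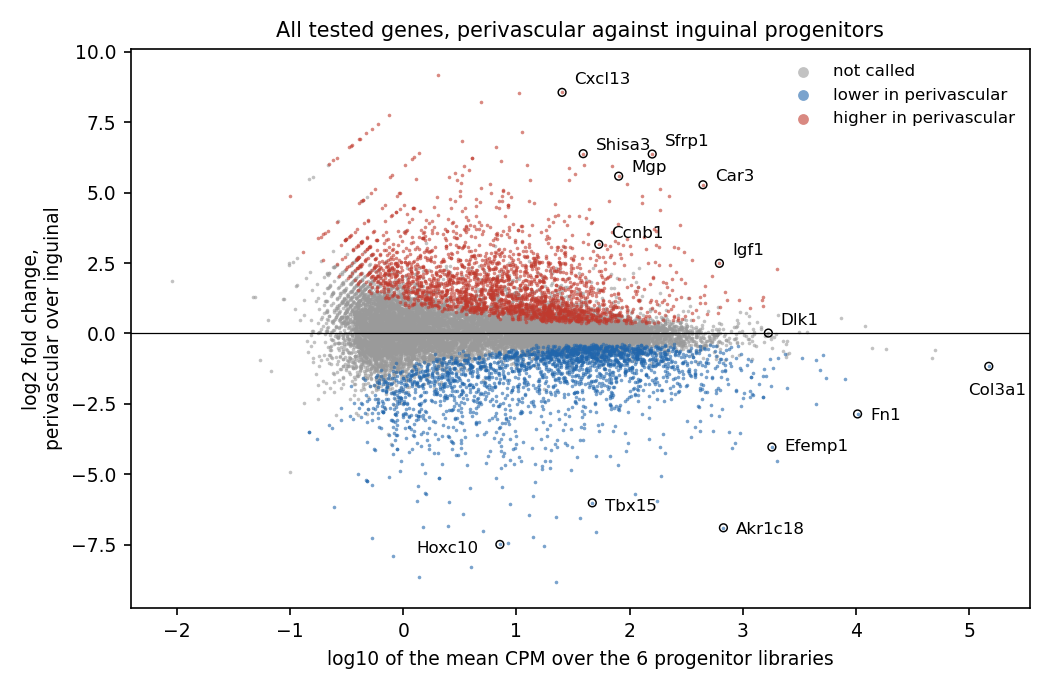
Log2 fold change of perivascular over inguinal progenitors (vertical axis) against the log10 mean CPM of the 6 libraries (horizontal axis), 1 point for each of 18855 tested genes. Red points were called higher (2459 genes), blue points lower (2228) and grey points not, and 14 genes are ringed and named. Calls reach from high-abundance genes such as Col3a1 and Fn1 to genes near 1 CPM.

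Genes that mark position along the body differed most sharply by gene number. Hox genes encode homeobox transcription factors that lie in 4 clusters, where low numbers are used toward the head and high numbers toward the tail. Of 24 tested Hox genes 14 rose and 5 fell, 79.2% against 24.9% of all genes, and 16 rose and 5 fell with library totals as the scale. In the HoxA cluster the 6 genes from Hoxa2 to Hoxa7 rose, and Hoxa9 and Hoxa10 fell. In the HoxC cluster Hoxc4 (log2 1.10) and Hoxc5 (log2 1.21) rose, Hoxc6 (log2 -0.11 ± 0.19 SE, adjusted p = 0.714) and Hoxc8 (log2 0.07 ± 0.15 SE, adjusted p = 0.786) did not pass, and Hoxc9 and Hoxc10 fell. Hoxa3 was at 13.01, 18.2 and 16.7 CPM in the perivascular and 1.07, 0.987 and 1.39 CPM in the inguinal libraries (log2 3.79 ± 0.27 SE, adjusted p = 9.18e-07). Hoxb5 was at 8.57, 9.56 and 7.20 CPM against 0.286, 0.38 and 0.41 CPM (log2 4.54 ± 0.36 SE, adjusted p = 1.98e-06). At the other end Hoxa10 was at 0.413, 0.0576 and 0.379 CPM against 23.8, 23.5 and 28.9 CPM (log2 -6.43 ± 0.42 SE, adjusted p = 4.71e-07), and Hoxa9 at 7.85, 7.77 and 7.79 CPM against 26.8, 19.9 and 25.5 CPM (log2 -1.62 ± 0.19 SE, adjusted p = 5.53e-05). The 3 libraries of each group did not overlap for any of these 4 genes. Hoxa2 and Hoxa5 were highest in perivascular library 1, and without it their changes were log2 4.86, adjusted p = 8.1e-06 and log2 3.07, adjusted p = 2.09e-05, from log2 5.802 and log2 4.50. Hoxc9 changed by log2 -5.91, adjusted p = 3.14e-06 without it, from log2 -4.68, and Hoxa2 by log2 6.45, adjusted p = 0.000645 without inguinal library 1. Some calls were lost when a single library was left out: Hoxc4 without inguinal library 1 or 2, perivascular library 2 or 3 or any 1 ICAM1+ library (log2 0.84, adjusted p = 0.148 at the most), Hoxa6 without inguinal library 1 or 3 or perivascular library 1 (log2 1.57, adjusted p = 0.0863), Hoxb2 without inguinal library 1 or 2, perivascular library 1 or 2 (log2 0.96, adjusted p = 0.116) and Hoxd8 without inguinal library 2 or perivascular library 2 (log2 -1.65, adjusted p = 0.0593). With library totals Hoxc8 was called higher (log2 0.51, adjusted p = 0.0191). Hoxd9 was called lower without perivascular library 1 (log2 -5.73, adjusted p = 0.00966). Antisense partners overlap some of these exons (27.1% of the exon length of Hoxa3), and the sources used here do not say whether strand was used in counting.

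**Figure D3:**
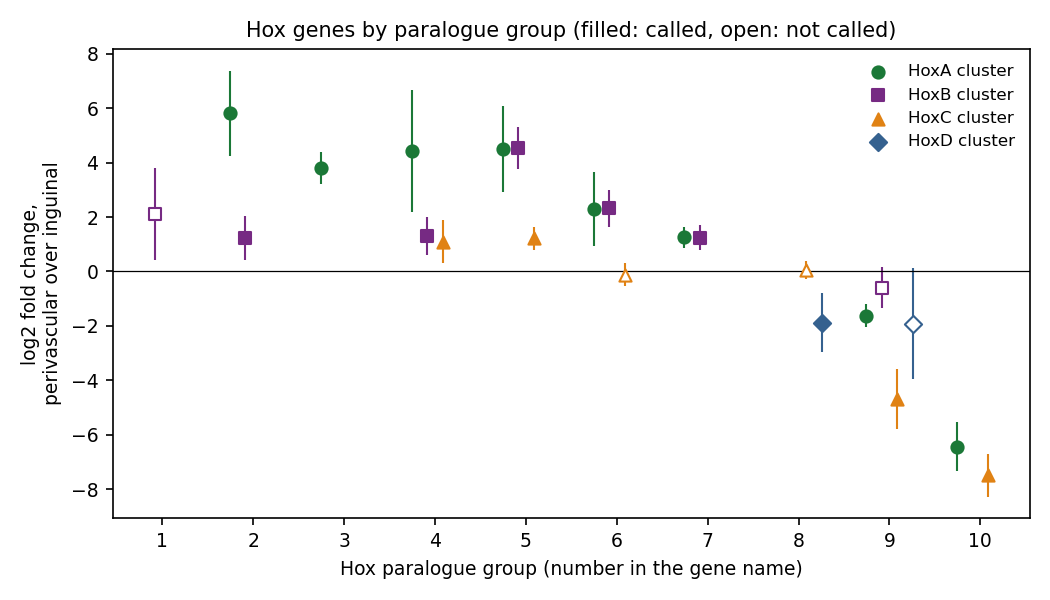
Log2 fold change of perivascular over inguinal progenitors with its 95% interval (vertical axis) for 23 of the 24 tested Hox genes, placed by the number in the gene name (horizontal axis) and marked by cluster. Filled symbols were called and open symbols were not. Called genes with numbers 2 to 7 lie above 0 and called genes with numbers 8 to 10 below.

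Tbx15, Tbx3, Tbx5, Shox2 and Osr2 fell in perivascular progenitors. Of 9 T-box factors 4 fell (44.4% called), and Tbx15, a regulator of trunk skin and limb skeleton, was at 1.65, 0.979 and 1.62 CPM in the perivascular and 87.4, 91.9 and 97.3 CPM in the inguinal libraries (log2 -6.01 ± 0.33 SE, adjusted p = 1.41e-07). Tbx3 was at 2.48, 2.13 and 1.68 CPM against 14.8, 17.1 and 18.6 CPM (log2 -3.0004 ± 0.22 SE, adjusted p = 9.86e-07) and Tbx5, the forelimb and heart factor, at 1.81, 1.96 and 1.14 CPM against 13.7, 10.2 and 10.8 CPM (log2 -2.82 ± 0.31 SE, adjusted p = 2.95e-05). Every perivascular library was below every inguinal one for these 3 genes. Of 65 homeobox factors outside the Hox clusters 10 rose and 18 fell, 43.1% called (21 rose and 13 fell with library totals, the other direction). Shox2, a limb homeobox factor, was at 0.31, 0.288 and 0.487 against 10.6, 11.8 and 16.4 CPM (log2 -5.13 ± 0.32 SE, adjusted p = 3.96e-07). Irx3, at 2.57, 1.06 and 4.67 CPM in the inguinal libraries, and Irx5, at 1.71, 1.21 and 1.97 CPM, had no count in the perivascular libraries and were at least 50.1-fold and 29.9-fold lower there, taking a floor of 3 counts over the group. Osr2, a zinc finger factor of limb and palate, was at 5.47, 5.47 and 5.79 CPM against 378, 299 and 362 CPM (log2 -5.96 ± 0.17 SE, adjusted p = 9.19e-10). The gap between the groups for Osr2 was far wider than the spread within either.

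Tcf21, Gata6, Foxp2 and Foxs1 rose in perivascular progenitors. Tcf21, a helix-loop-helix factor of visceral fibroblasts, was at 9.19, 8.23 and 6.65 CPM in the perivascular and 0.143, 0.152 and 0 CPM in the inguinal libraries (log2 6.21 ± 0.63 SE, adjusted p = 1.56e-05). Gata6, a zinc finger factor of heart and vessel wall, was at 97.4, 18.998 and 19.3 CPM against 7.64, 8.35 and 8.20 CPM (log2 2.49 ± 0.52 SE, adjusted p = 0.00341). Perivascular library 1 lay well above the other 2, and without it the change was log2 1.24, adjusted p = 6.13e-05. Of 22 forkhead factors 7 rose, 31.8% called against 24.9% of all genes, and 3 fell without perivascular library 1. Foxp2 was at 92.2, 74.2 and 84.7 CPM against 10.6, 9.49 and 12.9 CPM (log2 2.93 ± 0.36 SE, adjusted p = 7.68e-05), and Foxs1, a forkhead factor of pericytes and neural crest, at 9.71, 9.15 and 9.47 CPM against 1.14, 2.20 and 1.15 CPM (log2 2.65 ± 0.32 SE, adjusted p = 5.99e-05), both without overlap. Foxc1 (log2 4.87) and Foxc2 (log2 4.76), needed for the outflow tract of the heart, were highest in perivascular library 1 and changed by log2 3.49, adjusted p = 0.00014 and log2 2.59, adjusted p = 0.00308 without it. Rorb, a nuclear receptor, went the other way, at 0.568, 1.96 and 0.92 CPM against 33.0, 31.1 and 33.1 CPM (log2 -4.82 ± 0.37 SE, adjusted p = 1.77e-06, and log2 -5.46, adjusted p = 1.19e-06 without perivascular library 2). Esr1, the oestrogen receptor, was likewise lower, at 14.6, 6.51 and 9.85 CPM against 50.4, 55.96 and 62.8 CPM (log2 -2.45 ± 0.38 SE, adjusted p = 0.000498). Of 35 nuclear receptors 6 rose and 8 fell (40% called), and with library totals 14 rose and 5 fell, which turns the balance.

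Genes of dividing cells rose together in perivascular progenitors. All 42 tested genes of mitosis and the kinetochore rose (median log2 2.38, against 0.05 for all genes), and 31 of 35 DNA replication genes did (88.6% called, median 1.33). The summed level of the mitosis list was 1612, 1725 and 1696 CPM in the perivascular and 371, 431 and 352 CPM in the inguinal libraries. Ccnb1 encodes cyclin B1, which drives entry into mitosis, and was at 96.0, 92.5 and 99.9 CPM against 11.3, 11.4 and 9.51 CPM (log2 3.16 ± 0.21 SE, adjusted p = 5.28e-07). Bub1b, a spindle checkpoint kinase, was at 33.7, 48.1 and 55.6 CPM against 5.14, 7.29 and 3.61 CPM (log2 3.09 ± 0.27 SE, adjusted p = 4.56e-06). Aurkb, the mitotic kinase aurora B, was at 42.8, 44.7 and 43.6 CPM against 4.93, 6.15 and 5.66 CPM (log2 2.97 ± 0.16 SE, adjusted p = 1.17e-07). The groups stood well apart for all 3 genes, and within the perivascular group Bub1b spread more than Ccnb1 and Aurkb. Among replication genes, Rrm2, a subunit of ribonucleotide reductase, was at 109.7, 128 and 134 CPM against 24.3, 22.3 and 19.2 CPM (log2 2.49 ± 0.22 SE, adjusted p = 5.3e-06), and Mcm5, part of the replicative helicase, at 49.7, 54.3 and 56.6 CPM against 13.8, 15.3 and 10.2 CPM (log2 2.03 ± 0.18 SE, adjusted p = 4.88e-06). Uhrf1, which copies DNA methylation after replication, was at 56.8, 63.3 and 60.3 CPM against 9.72, 14.7 and 8.45 CPM (log2 2.46 ± 0.23 SE, adjusted p = 7.8e-06).

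Promoters of mitotic genes often carry CCAAT boxes bound by NF-Y and a CHR element, and the windows of 250 bases before the start were searched for CCAAT and TTTGAA on both strands. Of 35 mitosis genes with a window in the RefSeq promoter table, 25 held CCAAT (71.4%, against 37.5% of 27025 genes), 11 held TTTGAA (31.4% against 18.3%) and 10 held both (28.6% against 7.34%). A match is a run of letters and not a shown binding site. Ccnb1 and Bub1b are printed because they had the largest changes of the list, with CCAAT or its reverse complement in capitals, from RefSeq GRCm38.p6.
Ccnb1, chr13:100786487-100786736, minus strand: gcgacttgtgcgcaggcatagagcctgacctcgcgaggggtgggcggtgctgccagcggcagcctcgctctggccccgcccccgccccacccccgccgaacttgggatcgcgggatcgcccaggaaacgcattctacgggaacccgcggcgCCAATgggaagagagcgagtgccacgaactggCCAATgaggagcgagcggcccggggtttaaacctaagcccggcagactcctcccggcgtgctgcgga
Bub1b, chr2:118597961-118598210, plus strand: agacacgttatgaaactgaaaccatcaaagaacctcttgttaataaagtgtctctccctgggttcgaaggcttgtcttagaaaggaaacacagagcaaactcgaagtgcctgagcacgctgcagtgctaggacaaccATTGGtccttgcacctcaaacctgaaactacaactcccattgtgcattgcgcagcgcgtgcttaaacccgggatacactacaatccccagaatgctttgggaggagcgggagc
In Ccnb1 the CCAAT boxes begin 99 and 67 bases before the start, and in Bub1b the box begins 113 bases before it and lies on the opposite strand.

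The genes of the G1 phase, before DNA is copied, did not move as one. Of 24 cyclin D, cyclin E and CDK inhibitor genes 8 rose and 1 fell (37.5% called, median 0.15), 12 rose with library totals, 2 fell with the pools as a block, 4 fell without perivascular library 1 and 3 without perivascular preadipocyte library 1 or 3. Between 4 and 5 rose without inguinal library 1, 2 or 3 or perivascular library 2, and 5 with the pools as a block. Cdk6, a kinase that opens the cell cycle, was at 26.4, 25.4 and 27.8 CPM against 4.36, 5.24 and 1.56 CPM (log2 2.83 ± 0.35 SE, adjusted p = 7.09e-05). Cdkn1a, which encodes the inhibitor p21, was the gene that fell, at 30.5, 34.2 and 29.7 CPM against 159, 158 and 160.3 CPM (log2 -2.34 ± 0.26 SE, adjusted p = 3.52e-05). Its 3 values in each group lay close together. Cyclin D2 did not pass the test, with Ccnd2 at 193, 190.3 and 189 CPM in the perivascular and 188, 167 and 171 CPM in the inguinal libraries (log2 0.12 ± 0.14 SE, adjusted p = 0.572), and was called higher with library totals (log2 0.55, adjusted p = 0.00793).

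**Figure D4:**
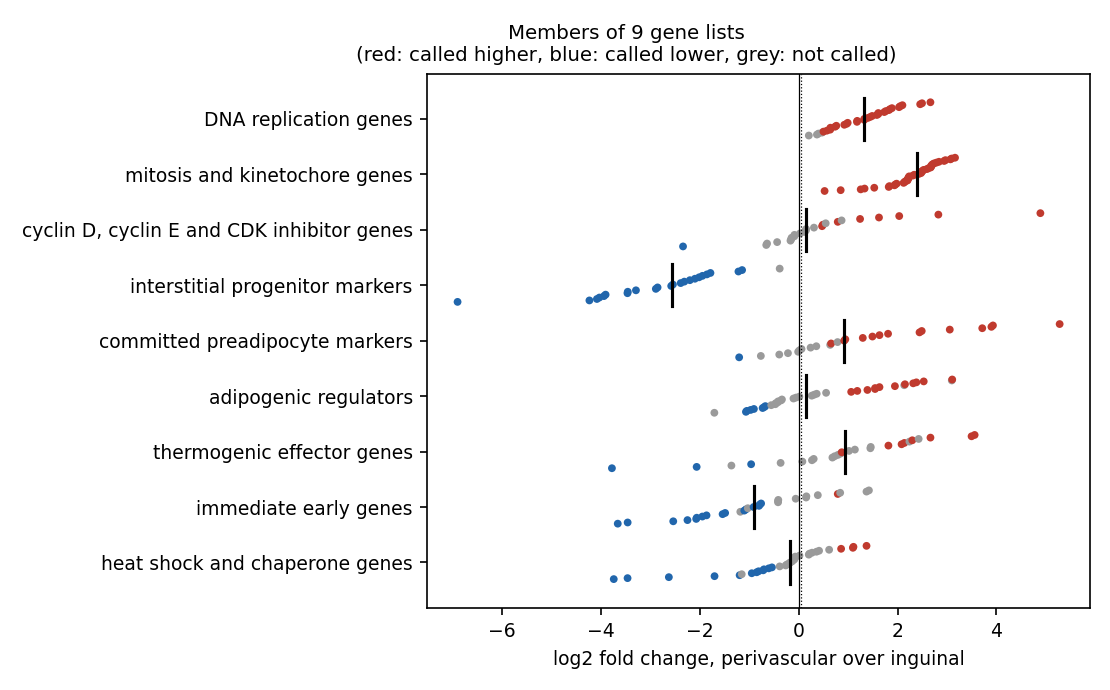
Log2 fold change of perivascular over inguinal progenitors (horizontal axis) for each tested member of 9 gene lists (vertical axis), red where called higher, blue where called lower and grey where not called. The black bar is the list's median and the dotted line the median of all genes (0.05). The 42 mitosis genes all lie above 0 with a median of 2.38, and interstitial progenitor markers have a median of -2.56.

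The markers of interstitial progenitors, the DPP4+ state of subcutaneous fat, were lower in perivascular progenitors. Of 24 tested 23 fell (95.8% called, median -2.56), and Procr (log2 -0.38 ± 0.17 SE, adjusted p = 0.131) was the one that did not pass. The list was drawn up from DPP4+ cells of subcutaneous fat and holds Dpp4, which is among the 23, so that its direction follows in part from the inguinal sort. Wnt2, a Wnt ligand, was at 23.4, 18.998 and 20.3 CPM in the perivascular and 425, 353 and 398 CPM in the inguinal libraries (log2 -4.23 ± 0.19 SE, adjusted p = 3.26e-08). Akr1c18, a hydroxysteroid dehydrogenase that inactivates progesterone, was at 15.7, 9.33 and 8.60 CPM against 1396, 1153 and 1463 CPM (log2 -6.89 ± 0.29 SE, adjusted p = 1.98e-08). Limch1, an actin-binding protein, was at 10.7, 16.5 and 13.96 CPM against 147, 133 and 122 CPM (log2 -3.29 ± 0.21 SE, adjusted p = 4.67e-07). None of these genes had a perivascular library near the inguinal range. Sema3c, a secreted guidance cue, was at 539.6, 603 and 726 CPM against 2299.9, 2325 and 1799 CPM (log2 -1.78 ± 0.42 SE, adjusted p = 0.00707). Anxa3 (annexin A3) was at 168, 134 and 136 CPM against 724, 642 and 805 CPM (log2 -2.31 ± 0.18 SE, adjusted p = 1.87e-06). Bmp7, a bone morphogenetic protein, was at 18.9, 4.203 and 3.79 CPM against 83.4, 89.2 and 124.2 CPM (log2 -3.46 ± 0.52 SE, adjusted p = 0.000359), and without perivascular library 1, the highest of its group, its change was log2 -4.63, adjusted p = 1.47e-07.

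In the list drawn up for committed preadipocytes more genes rose than fell. Some of its members are on other lists as well, and none was shown here to be particular to that state. Of 25 tested 14 rose and 1 fell (2 or 3 without perivascular preadipocyte library 3 or 1), 60% called against 24.9% of all genes (median 0.92). Car3, a carbonic anhydrase abundant in fat, was at 795, 911 and 898 CPM in the perivascular and 15.9, 31.2 and 20.01 CPM in the inguinal libraries (log2 5.28 ± 0.42 SE, adjusted p = 2.13e-06). Clec11a, a secreted lectin, was at 171, 137 and 141 CPM against 9.86, 11.1 and 9.10 CPM (log2 3.90 ± 0.42 SE, adjusted p = 2.81e-05), and F3, which encodes tissue factor, at 512, 374 and 447 CPM against 56.3, 49.4 and 54.5 CPM (log2 3.06 ± 0.31 SE, adjusted p = 1.53e-05). Vcam1, an adhesion receptor for leukocytes, was at 165, 160.0 and 193 CPM against 62.2, 63.8 and 58.1 CPM (log2 1.49 ± 0.28 SE, adjusted p = 0.00168). The libraries of the groups did not overlap for these 4 genes. Lpl, the lipase that releases fatty acids from lipoproteins, was at 1563, 1539 and 1485 CPM against 723, 813 and 886 CPM (log2 0.92 ± 0.19 SE, adjusted p = 0.00316). Cd36, a fatty acid carrier, was the one that fell, at 59.6, 88.1 and 94.8 CPM against 129, 265 and 164 CPM (log2 -1.20 ± 0.31 SE, adjusted p = 0.0139), and without inguinal library 2, the highest, it was not called (log2 -0.85, adjusted p = 0.0733), nor with library totals (log2 -0.78, adjusted p = 0.0724). Icam1, which the sort of inguinal preadipocytes used, was at 90.3, 102 and 95.4 CPM against 67.9, 73.5 and 43.7 CPM (log2 0.64 ± 0.22 SE, adjusted p = 0.0505). It was called higher with the pools as a block (log2 0.67, adjusted p = 0.0448), with library totals (log2 1.06, adjusted p = 0.00306), with the DESeq2 Wald test (log2 0.60, adjusted p = 0.0455) and with limma voom (log2 0.62, adjusted p = 0.00371). The same held with the 6 progenitor libraries alone, without the 3 libraries that stood apart and without inguinal library 2 or perivascular preadipocyte library 1 or 3.

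Regulators of fat cell formation and heat production moved in both directions. Of 36 adipogenic regulators 12 rose and 7 fell (52.8% called, median 0.14), while 4 fell without inguinal library 2 and 2 with library totals. Ebf2, a factor of brown fat precursors, was at 236, 306 and 299.6 CPM against 129, 116 and 124.1 CPM (log2 1.19 ± 0.18 SE, adjusted p = 0.000339), and Prdm16, a brown fat coregulator, at 5.63, 9.44 and 11.1 CPM against 3.21, 3.11 and 2.62 CPM (log2 1.55 ± 0.34 SE, adjusted p = 0.00529). Nr2f2, the nuclear receptor COUP-TFII, was at 41.4, 35.5 and 46.4 CPM against 11.1, 11.997 and 8.78 CPM (log2 1.95 ± 0.17 SE, adjusted p = 5.05e-06). Each of these 3 genes was higher in every perivascular library. Ebf1, a related factor of fat cell formation, was lower at 162, 211 and 195 CPM against 336, 300.1 and 305 CPM (log2 -0.73 ± 0.17 SE, adjusted p = 0.00734), a call lost with library totals (log2 -0.30, adjusted p = 0.2). Of 26 thermogenic genes 8 rose (15 with library totals) and 3 fell (2 with library totals), 42.3% called. The summed level of the list went the other way, at 383, 359 and 370 CPM in the perivascular and 905, 858 and 1011 CPM in the inguinal libraries. Dio2, which activates thyroid hormone, was at 3.77, 4.55 and 8.01 CPM against 0.286, 0.987 and 0.082 CPM (log2 3.56 ± 0.73 SE, adjusted p = 0.00325), and without inguinal library 2 its change was log2 4.80, adjusted p = 0.00305. Ppargc1b, a coactivator of mitochondrial genes, was at 6.76, 12.1 and 10.1 CPM against 1.29, 2.96 and 1.64 CPM (log2 2.30 ± 0.42 SE, adjusted p = 0.00147). Irf4, a factor of the fasting response in fat, fell, at 2.99, 2.07 and 4.33 CPM against 46.6, 43.6 and 38.7 CPM (log2 -3.77 ± 0.45 SE, adjusted p = 5.35e-05). These thermogenic genes stood at low levels in both groups apart from Irf4 in the inguinal cells.

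The extracellular matrix differed in composition. Fibrillar and related collagens took 18.996 ± 4.87% of all counts in the perivascular and 27.3 ± 1.19% in the inguinal libraries (mean ± SD, n = 3). Perivascular library 1 was the lowest at 13.4%, with libraries 2 and 3 at 21.7 and 21.9%, and the inguinal libraries were at 26.4, 26.8 and 28.6%. Col3a1 alone fell by 1.17 on the log2 scale (adjusted p = 0.0462). That call was lost with library totals (log2 -0.73, adjusted p = 0.115), with the pools as a block (log2 -1.16, adjusted p = 0.0768) and without any 1 of the 6 progenitor libraries, the 3 ICAM1+ libraries or perivascular preadipocyte library 2. Col1a1 (log2 -0.88 ± 0.44 SE, adjusted p = 0.17) and Col1a2 (log2 -0.58 ± 0.41 SE, adjusted p = 0.336), the chains of type I collagen, did not pass, but were called lower without perivascular preadipocyte library 1 (log2 -0.89, adjusted p = 0.0335 and log2 -0.60, adjusted p = 0.037). Of 32 collagens in this list, of which 40.6% were called, 8 rose and 5 fell (3 with library totals or without inguinal library 3 or perivascular library 3, and 10 without perivascular preadipocyte library 1). Col5a3, a minor fibril chain, was at 197, 444 and 372 CPM against 1593, 1705 and 1704 CPM (log2 -2.30 ± 0.24 SE, adjusted p = 2.15e-05). Col8a2, a short-chain collagen of vessel walls, was at 57.4, 38.7 and 37.5 CPM against 0.857, 3.95 and 2.46 CPM (log2 4.205 ± 0.40 SE, adjusted p = 9.32e-06). Both were separate between the groups. Col11a1, a chain known from cartilage, rose from 6.79, 6.07 and 6.56 CPM in the inguinal to 25.3, 39.5 and 58.8 CPM in the perivascular libraries (log2 2.67 ± 0.52 SE, adjusted p = 0.00226).

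Of 42 elastic fibre and adhesive genes 13 rose and 14 fell, 64.3% called against 24.9% of all genes. Fn1 (fibronectin) was at 1423, 3159 and 2939 CPM in the perivascular and 17836, 19313 and 17289 CPM in the inguinal libraries (log2 -2.86 ± 0.37 SE, adjusted p = 0.000108). Fbn1 (fibrillin 1) was at 1221, 1357 and 1411 CPM against 7265, 7721 and 7838 CPM (log2 -2.52 ± 0.32 SE, adjusted p = 8.33e-05), and Efemp1 (fibulin 3) at 219, 209 and 199 CPM against 3402, 3092 and 3729 CPM (log2 -4.03 ± 0.17 SE, adjusted p = 1.98e-08). All 3 are abundant, and the inguinal libraries were several times the perivascular ones. Mfap4, a microfibril protein of elastic vessels, went the other way, at 3750.4, 2979 and 3314 CPM against 671, 673 and 723 CPM (log2 2.28 ± 0.40 SE, adjusted p = 0.00109). Spon1 (spondin 1) was at 148, 199 and 197 CPM against 23.003, 23.5 and 16.6 CPM (log2 3.11 ± 0.23 SE, adjusted p = 1.26e-06), and Ltbp2, a latent TGF-beta binding protein, at 69.1, 128 and 127 CPM against 15.4, 11.2 and 10.4 CPM (log2 3.12 ± 0.46 SE, adjusted p = 0.000289). Fbln7 (fibulin 7) was at 104, 65.3 and 66.7 CPM against 0.857, 2.28 and 0.574 CPM (log2 5.97 ± 0.69 SE, adjusted p = 4.45e-05), and its change was log2 6.75, adjusted p = 0.000174 without inguinal library 2. Mgp, the matrix Gla protein that keeps arteries free of calcium deposits, was at 183, 147 and 141 CPM against 3.14, 4.02 and 2.62 CPM (log2 5.58 ± 0.31 SE, adjusted p = 1.58e-07).

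Of 33 basement membrane genes 9 rose and 9 fell (14 and 7 with library totals), 54.5% called. Nid1 (nidogen 1) was at 1928, 3020.0 and 3227 CPM against 8185, 8693 and 7557 CPM (log2 -1.58 ± 0.32 SE, adjusted p = 0.00301). Smoc2, a matricellular protein, was higher at 788, 406 and 407 CPM against 56.2, 64.9 and 95.5 CPM (log2 2.89 ± 0.49 SE, adjusted p = 0.000923), with perivascular library 1 the highest. Of 38 proteoglycan and hyaluronan genes 13 rose and 10 fell, 60.5% called. Has1, a hyaluronan synthase, was at 20.03, 23.5 and 20.9 CPM against 447, 314 and 292 CPM (log2 -4.03 ± 0.28 SE, adjusted p = 8.48e-07), and Tnfaip6, which crosslinks hyaluronan, at 73.6, 65.7 and 67.1 CPM against 784, 585 and 674 CPM (log2 -3.31 ± 0.18 SE, adjusted p = 1.52e-07). Hapln1, a hyaluronan link protein, was at 10.4, 13.9 and 14.9 CPM against 0.143, 0.152 and 0.082 CPM (log2 6.61 ± 0.67 SE, adjusted p = 1.53e-05). So the synthase and the crosslinker were higher in the inguinal cells and the link protein in the perivascular cells. Of 59 matrix proteases and inhibitors 12 rose (7 without inguinal library 1, 18 with library totals) and 19 fell, 52.5% called. Timp3, a protease inhibitor bound to the matrix, was at 96.2, 123.3 and 144 CPM against 1415, 1407 and 1306 CPM (log2 -3.51 ± 0.42 SE, adjusted p = 5.95e-05), and 21.3% of its exon length overlaps another gene. Adamtsl4, a fibrillin-binding protein, was at 125, 212 and 199 CPM against 1116, 1031 and 1285 CPM (log2 -2.68 ± 0.36 SE, adjusted p = 0.000165), and Adamtsl3 at 70.6, 104 and 104 CPM against 11.1, 16.5 and 15.4 CPM (log2 2.70 ± 0.25 SE, adjusted p = 7.8e-06), so that these relatives moved in opposite directions.

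**Figure D5:**
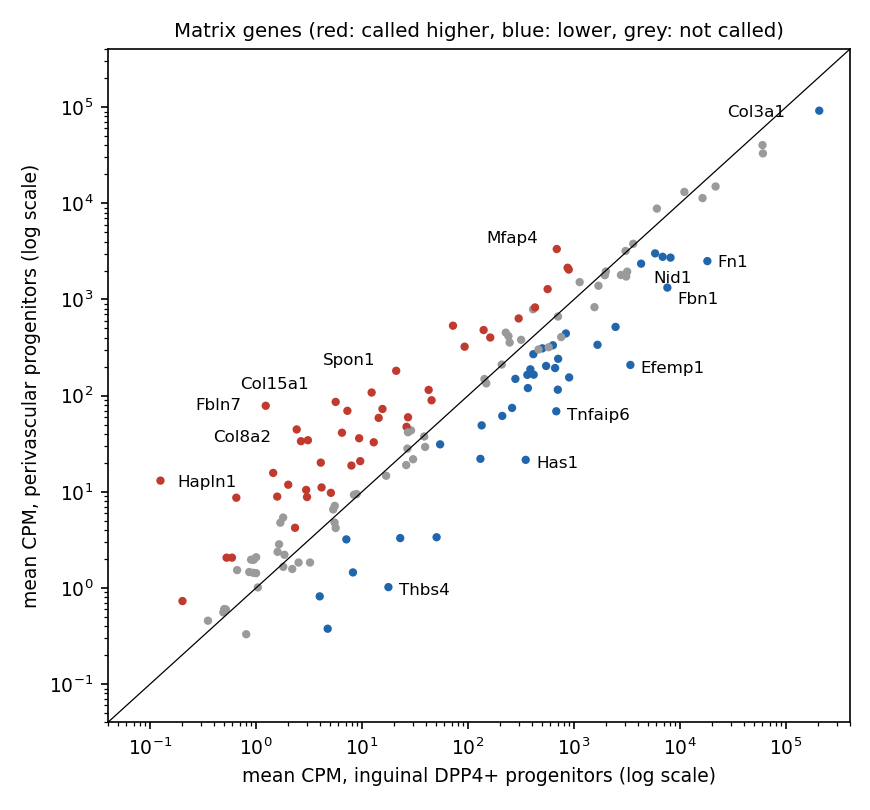
Mean CPM of 3 perivascular libraries (vertical axis) against mean CPM of 3 inguinal libraries (horizontal axis), both on log scales, for tested genes of 4 matrix lists (collagens, basement membrane, elastic fibre and adhesive genes, proteoglycans). Red points were called higher, blue points lower and grey points not, and the line marks equal levels. Among the named genes Fn1, Fbn1 and Efemp1 lie below the line and Mfap4, Spon1 and Hapln1 above it.

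Secreted signals and their inhibitors differed within each family. Of 52 Wnt ligands, receptors and antagonists, of which 42.3% were called against 24.9% of all genes, 13 rose and 9 fell (16 fell without perivascular library 1, and 6 with library totals or without inguinal library 1 or 3 or perivascular library 3). The ligands Wnt16 and Wnt10b fell, Wnt16 at 0.465, 0.576 and 1.08 CPM against 16.3, 12.9 and 14.3 CPM (log2 -4.34 ± 0.39 SE, adjusted p = 5.3e-06) and Wnt10b at 2.12, 1.44 and 0.866 CPM against 20.1, 20.05 and 24.7 CPM (log2 -3.87 ± 0.33 SE, adjusted p = 4.17e-06). Sfrp1, a secreted inhibitor of Wnt ligands, was at 669.5, 133 and 137 CPM in the perivascular and 4.36, 4.25 and 2.71 CPM in the inguinal libraries (log2 6.37 ± 0.65 SE, adjusted p = 1.64e-05). Perivascular library 1 was the highest by far, and without it the change was log2 5.14, adjusted p = 6.14e-08. Rspo1, which strengthens Wnt signals and is known from mesothelium, was at 16.4, 3.97 and 4.92 CPM against 0.286, 0.456 and 0.164 CPM (log2 4.77 ± 0.65 SE, adjusted p = 0.000174), and log2 3.84, adjusted p = 4.09e-05 without that library.

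BMP ligands were among the genes that fell. Of 43 BMP genes tested 9 rose and 11 fell (46.5% called), but 17 rose and 7 fell with library totals, and 7 fell without inguinal library 2 or perivascular library 2. Bmp4 was at 10.6, 9.21 and 11.9 CPM against 59.6, 51.3 and 55.4 CPM (log2 -2.39 ± 0.24 SE, adjusted p = 1.64e-05). Bmp2 was at 5.21, 2.01 and 1.30 CPM against 16.7, 18.1 and 23.05 CPM (log2 -2.75 ± 0.54 SE, adjusted p = 0.00229), and log2 -3.55, adjusted p = 0.000239 without perivascular library 1. Gdf10, a relative of the BMPs, was higher at 657, 375 and 388 CPM against 57.7, 56.6 and 58.5 CPM (log2 3.04 ± 0.42 SE, adjusted p = 0.000194). Sost (sclerostin), at 2.37, 1.21 and 0.866 CPM in the perivascular libraries, had no inguinal count and was at least 19.7-fold higher, with a floor of 3 counts over the group. Fstl1, a secreted BMP and activin antagonist, was at 3600.5, 3847 and 4348 CPM against 12478, 11514 and 12145 CPM (log2 -1.62 ± 0.36 SE, adjusted p = 0.00524), with no overlap. In the TGF-beta list 7 of 29 rose and 6 fell (16 and 4 with library totals), 44.8% called. The receptor Tgfbr2 was at 203, 233 and 258 CPM against 899, 972 and 911 CPM (log2 -2.001 ± 0.33 SE, adjusted p = 0.000759) and the ligand Tgfb3 at 339, 368 and 413 CPM against 104, 97.3 and 92.5 CPM (log2 1.93 ± 0.43 SE, adjusted p = 0.00512), so that a receptor was lower and a ligand higher.

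Several Hedgehog genes, targets of the pathway among them, rose in perivascular progenitors. Of 18 tested 8 rose and 1 fell (2 fell without inguinal preadipocyte library 1), 50% called against 24.9% of all genes, with a median of 0.56. Hhip, a target gene that encodes an inhibitor binding the ligand, was at 149, 172 and 232 CPM in the perivascular and 4.21, 5.92 and 3.94 CPM in the inguinal libraries (log2 5.29 ± 0.67 SE, adjusted p = 9.57e-05). Gli1, a transcription factor and target of the pathway, was at 18.6, 28.0 and 27.9 CPM against 3.43, 3.42 and 3.44 CPM (log2 2.85 ± 0.33 SE, adjusted p = 5e-05). Ptch1, the receptor and also a target, was at 27.4, 31.5 and 37.2 CPM against 12.6, 19.7 and 12.4 CPM (log2 1.10 ± 0.27 SE, adjusted p = 0.00961). All perivascular libraries exceeded all inguinal libraries for these 3 genes. The size of the change in Gas1, a co-receptor, rested on 1 library. It was at 667, 41.6 and 41.3 CPM against 7.57, 7.06 and 10.7 CPM (log2 4.89 ± 0.97 SE, adjusted p = 0.00258), and log2 2.29, adjusted p = 0.000158 without perivascular library 1. Disp1, which releases the ligand from the cells that make it, fell, at 25.97, 40.4 and 38.5 CPM against 105, 96.1 and 96.3 CPM (log2 -1.51 ± 0.18 SE, adjusted p = 6.11e-05).

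Notch genes moved by member. Of 22 tested 7 rose (4 without inguinal library 1, 11 with library totals) and 4 fell (6 without perivascular library 1), 50% called. The target genes Heyl, at 58.5, 80.7 and 97.2 CPM against 4.79, 11.2 and 4.43 CPM (log2 3.53 ± 0.54 SE, adjusted p = 0.000398), and Hey2, at 10.3, 9.38 and 12.1 CPM against 0.786, 1.21 and 1.56 CPM (log2 3.16 ± 0.45 SE, adjusted p = 0.000241), rose. The receptor gene Notch2 fell, at 29.2, 26.4 and 22.6 CPM against 104, 113 and 134 CPM (log2 -2.17 ± 0.17 SE, adjusted p = 1.55e-06). Dlk1, a noncanonical Notch ligand known as a preadipocyte gene, was at 1821, 1878 and 1374 CPM against 1414, 1641 and 1966 CPM and did not pass (log2 0.015 ± 0.18 SE, adjusted p = 0.963). The groups overlapped for Dlk1 and were separate for the other 3. In the FGF list 9 of 32 rose and 4 fell (16 and 4 with library totals), 40.6% called. Fgf7, a growth factor for epithelia, was at 126, 101 and 119.9 CPM against 44.7, 37.7 and 47.7 CPM (log2 1.41 ± 0.17 SE, adjusted p = 7.54e-05). Spry2, an inhibitor induced by FGF signals, was at 5.06, 4.32 and 4.71 CPM against 14.6, 10.5 and 11.8 CPM (log2 -1.39 ± 0.26 SE, adjusted p = 0.00168).

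Igf1, Prlr, Igfbp6 and genes of retinoid handling differed between the groups. Of 27 IGF, insulin and growth hormone genes 8 rose and 8 fell (5 fell with library totals), 59.3% called. Igf1, the insulin-like growth factor, was at 929, 1090.1 and 1146 CPM against 194, 179 and 191 CPM (log2 2.49 ± 0.14 SE, adjusted p = 1.52e-07). Prlr, the prolactin receptor, was at 122.9, 138 and 122 CPM against 3.86, 7.52 and 3.36 CPM (log2 4.70 ± 0.28 SE, adjusted p = 2.46e-07). Igfbp6, an IGF binding protein, fell, at 170.1, 143 and 121 CPM against 1101, 873 and 1294 CPM (log2 -2.91 ± 0.19 SE, adjusted p = 5.07e-07). None of these 3 overlapped. Igfbp7 was at 959, 52.9 and 46.2 CPM against 8.93, 17.01 and 25.3 CPM (log2 4.37 ± 0.98 SE, adjusted p = 0.00574), and log2 1.54, adjusted p = 0.00213 without perivascular library 1. Of 23 retinoid genes 10 rose and 2 fell (3 without inguinal library 1 or perivascular preadipocyte library 3), 52.2% called. The enzymes that make retinoic acid split, with Aldh1a2 at 6.92, 7.54 and 5.95 CPM against 0.357, 0.304 and 0.492 CPM (log2 4.13 ± 0.36 SE, adjusted p = 4.8e-06) and Aldh1a3 at 47.7, 55.2 and 52.1 CPM against 649.7, 629 and 679 CPM (log2 -3.66 ± 0.14 SE, adjusted p = 1.11e-08). Aldh1a2 is also on the mesothelial list.

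Of 38 genes for PDGF and angiogenic ligands and receptors, of which 47.4% were called, 10 rose and 8 fell (15 rose and 5 fell with library totals, and 4 fell without inguinal library 2, and 5 without inguinal library 3 or perivascular library 2). Nrp1 (neuropilin 1), a co-receptor for VEGF and semaphorins, was at 586, 590.3 and 651 CPM in the perivascular and 89.9, 123.2 and 88.3 CPM in the inguinal libraries (log2 2.60 ± 0.26 SE, adjusted p = 1.4e-05). Mdk (midkine), a heparin-binding growth factor, was at 205, 177 and 159 CPM against 24.0, 24.6 and 28.4 CPM (log2 2.81 ± 0.17 SE, adjusted p = 2.94e-07). Tek, the angiopoietin receptor, fell, at 97.3, 109.5 and 137 CPM against 707, 730.4 and 615 CPM (log2 -2.58 ± 0.26 SE, adjusted p = 1.66e-05). It is on the interstitial progenitor list and on the endothelial list. Ndnf, a secreted neurotrophic factor, was at 63.7, 51.9 and 55.0 CPM against 1.14, 1.82 and 0.902 CPM (log2 5.45 ± 0.30 SE, adjusted p = 1.41e-07). Ccn3, a matricellular growth regulator, was at 160.4, 163 and 179 CPM against 3826, 3646 and 4013 CPM (log2 -4.51 ± 0.35 SE, adjusted p = 1.83e-06). The receptor tyrosine kinase Axl was at 794, 1079 and 1216 CPM against 3817, 3838 and 4084 CPM (log2 -1.93 ± 0.27 SE, adjusted p = 0.000186).

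Ntrk2, Ntrk3 and Ngfr, receptors for nerve growth factors, rose in perivascular progenitors. Of 26 neurotrophic factors and receptors 9 rose (5 without inguinal library 1 or 3, 6 without perivascular library 1) and 3 fell (5 without perivascular preadipocyte library 1, 2 without perivascular library 3 or with library totals), 46.2% called against 24.9% of all genes. Ntrk2, the receptor for BDNF, was at 440.1, 528 and 603 CPM in the perivascular and 31.5, 47.3 and 30.3 CPM in the inguinal libraries (log2 3.85 ± 0.30 SE, adjusted p = 1.72e-06). Ntrk3, the receptor for neurotrophin 3, was at 78.8, 76.9 and 78.1 CPM against 5.57, 5.16 and 2.87 CPM (log2 4.10 ± 0.32 SE, adjusted p = 1.72e-06), and Ngfr, the low-affinity receptor, at 9.14, 18.2 and 13.7 CPM against 1.71, 2.05 and 1.31 CPM (log2 3.01 ± 0.34 SE, adjusted p = 3.45e-05). These 3 receptors were higher in every perivascular library. Ngfr is itself on the Schwann and neural list, and the part of Schwann or neural cells in these values was not tested. Of 70 axon guidance genes 18 rose and 12 fell, 42.9% called. Epha4, an ephrin receptor, was at 43.6, 45.9 and 50.4 CPM against 5.43, 6.61 and 7.14 CPM (log2 2.87 ± 0.26 SE, adjusted p = 5.48e-06), and Sema3e, a repulsive cue, at 4.49, 4.61 and 6.71 CPM against 43.2, 43.4 and 41.7 CPM (log2 -3.02 ± 0.60 SE, adjusted p = 0.00269). Chl1, a neural adhesion molecule, was at 0.826, 0.518 and 0.812 CPM against 29.9, 27.5 and 27.1 CPM (log2 -5.27 ± 0.29 SE, adjusted p = 1.41e-07).

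Of 101 receptors for transmitters and peptides 25 rose and 18 fell (42 and 14 with library totals, and 12 fell without inguinal library 2), 42.6% called against 24.9% of all genes. Gabra2, a subunit of the GABA-A receptor, was at 0.826, 1.09 and 0.379 CPM in the perivascular and 80.2, 65.1 and 69.6 CPM in the inguinal libraries (log2 -6.54 ± 0.32 SE, adjusted p = 5.53e-08). Htr1f, a serotonin receptor, was at 0.103, 0.173 and 0 CPM against 16.1, 16.2 and 17.9 CPM (log2 -7.42 ± 0.69 SE, adjusted p = 7.63e-06, and log2 -8.16, adjusted p = 4.11e-05 without perivascular library 2). Vipr2, a receptor for vasoactive intestinal peptide, was at 77.6, 71.3 and 101 CPM against 2.57, 5.32 and 3.69 CPM (log2 4.43 ± 0.64 SE, adjusted p = 0.000274). Agtr2, an angiotensin II receptor, was at 924, 959 and 1114 CPM against 437, 429 and 454 CPM (log2 1.18 ± 0.18 SE, adjusted p = 0.000366). Each of the 4 genes was separate between the groups, with the serotonin and GABA receptors on the inguinal side and the peptide receptors on the perivascular side. Of 113 ion channel genes 25 rose and 12 fell, 32.7% called. Kcnb2, a voltage-gated potassium channel, was at 7.85, 10.8 and 8.71 CPM against 0.429, 0.456 and 0.164 CPM (log2 4.66 ± 0.34 SE, adjusted p = 1.18e-06), and Kcnn3, a calcium-activated one, at 3.05, 3.22 and 3.57 CPM against 36.4, 33.2 and 32.6 CPM (log2 -3.37 ± 0.43 SE, adjusted p = 8.81e-05). Kcnj8, a channel gated by ATP that is known from pericytes, was at 148, 123.1 and 136 CPM against 494, 459.9 and 525 CPM (log2 -1.86 ± 0.31 SE, adjusted p = 0.0008). Of 49 integrins and cadherins 10 rose (6 without inguinal library 3) and 10 fell, 40.8% called. Itga8, an integrin of smooth muscle and fibroblasts, was at 31.0, 75.6 and 95.4 CPM against 2.43, 5.998 and 2.87 CPM (log2 4.16 ± 0.55 SE, adjusted p = 0.000141), and Cdh12 at 18.5, 24.9 and 31.6 CPM against 1.14, 0.911 and 0.82 CPM (log2 4.69 ± 0.57 SE, adjusted p = 6.47e-05).

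Immune signals differed by type. Of 30 stromal cytokines and alarmins 5 rose and 12 fell, 56.7% called. Il33, an alarmin held in the nuclei of stromal cells, was at 398, 392 and 497 CPM in the perivascular and 14.9, 15.5 and 13.8 CPM in the inguinal libraries (log2 4.86 ± 0.30 SE, adjusted p = 3.08e-07). Il18, another alarmin, was lower, at 2.79, 2.36 and 3.03 CPM against 34.4, 30.3 and 38.6 CPM (log2 -3.65 ± 0.26 SE, adjusted p = 8.29e-07), and so was Il6 at 9.81, 9.21 and 10.3 CPM against 54.6, 37.5 and 37.3 CPM (log2 -2.14 ± 0.18 SE, adjusted p = 3.19e-06). Tnfrsf11b (osteoprotegerin), the decoy receptor for RANKL, was at 32.2, 29.2 and 37.5 CPM against 260.4, 265 and 262 CPM (log2 -2.99 ± 0.55 SE, adjusted p = 0.00147). All 4 genes were separate between the groups. Of 36 chemokines and their receptors 3 rose and 10 fell (7 rose with library totals), 36.1% called. Cxcl2, which draws neutrophils, was at 0.568, 1.38 and 0.325 CPM against 14.5, 14.05 and 12.7 CPM (log2 -4.18 ± 0.37 SE, adjusted p = 4.58e-06, and log2 -4.95, adjusted p = 1.07e-06 without perivascular library 2). Ackr2, a scavenger of chemokines, was at 6.40, 8.46 and 4.22 CPM against 142, 121 and 122 CPM (log2 -4.33 ± 0.40 SE, adjusted p = 6.52e-06). Cxcl12, which retains blood stem cells and guides vessels, rose, at 586, 529 and 579 CPM against 298, 244 and 262 CPM (log2 1.07 ± 0.16 SE, adjusted p = 0.000264).

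Of 33 complement genes, of which 57.6% were called against 24.9% of all genes, 13 rose and 6 fell (3 without perivascular library 3, and 4 without inguinal library 2 or perivascular library 1 or with library totals). C3, the central component, was at 228, 401 and 348 CPM against 36.5, 45.8 and 33.0 CPM (log2 3.08 ± 0.27 SE, adjusted p = 4.09e-06). C7, of the membrane attack complex, was at 17.7, 27.7 and 31.8 CPM against 0.572, 0.607 and 0.574 CPM (log2 5.44 ± 0.40 SE, adjusted p = 1.13e-06). Every perivascular library was above every inguinal one for C3 and C7. Cfd (adipsin) fell, at 0.62, 0.461 and 1.19 CPM against 3.71, 112 and 185 CPM (log2 -7.03 ± 1.18 SE, adjusted p = 0.0008), but the inguinal libraries themselves spread widely and its change was log2 -6.23, adjusted p = 0.00265 without inguinal library 3. With limma voom Cfd was not called (log2 -5.10, adjusted p = 0.133). Of 38 interferon response genes 8 rose (5 without inguinal library 2) and 7 fell, 39.5% called, but 14 rose and 3 fell with library totals. Ifi205 was at 1.81, 2.36 and 2.38 CPM against 31.2, 38.04 and 46.7 CPM (log2 -4.14 ± 0.25 SE, adjusted p = 2.58e-07), and Isg15 at 4.28, 4.26 and 2.87 CPM against 0.714, 1.14 and 1.39 CPM (log2 1.82 ± 0.34 SE, adjusted p = 0.00173). Of 20 genes for MHC class I presentation 4 rose and 5 fell (45% called), and 9 rose and 3 fell with library totals.

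More immediate early genes fell than rose in perivascular progenitors. Of 29 immediate early genes, which are switched on within minutes of a stimulus and also by tissue digestion, 16 fell and 1 rose. That is 58.6% called against 24.9% of all genes, with a median of -0.91. The 1 rise was lost without inguinal library 2 or 3 or perivascular library 2. Csrnp1, a transcription factor, was at 9.86, 13.2 and 12.3 CPM in the perivascular and 148, 127 and 113 CPM in the inguinal libraries (log2 -3.46 ± 0.24 SE, adjusted p = 8.22e-07). Atf3, a stress factor, was at 106, 95.3 and 108 CPM against 439, 337 and 351 CPM (log2 -1.86 ± 0.15 SE, adjusted p = 1.83e-06), and Nr4a1, an orphan nuclear receptor, at 118, 146 and 147 CPM against 448, 386 and 356 CPM (log2 -1.54 ± 0.29 SE, adjusted p = 0.0017). Fos did not follow, at 1448, 1137 and 1276 CPM against 1261, 1107 and 1109 CPM (log2 0.15 ± 0.23 SE, adjusted p = 0.681). Egr1 was at 1678, 666 and 640.1 CPM against 844, 976 and 1289 CPM and did not pass (log2 -0.059 ± 0.35 SE, adjusted p = 0.925); it was called lower only with the 3 libraries that stood apart left out (log2 -0.71, adjusted p = 0.00582). Dusp1, a phosphatase gene of this list, was high in perivascular library 1 alone of its group, at 597, 93.3 and 82.6 CPM against 376, 457 and 742 CPM (log2 -1.03 ± 0.61 SE, adjusted p = 0.252), and it was called lower without that library (log2 -2.58, adjusted p = 0.000114). Ptgs2 (cyclooxygenase 2), which makes prostaglandins, fell, at 4.03, 3.97 and 4.82 CPM against 262, 195 and 202 CPM (log2 -5.68 ± 0.45 SE, adjusted p = 1.92e-06), and Nfkbia, the NF-kappa-B inhibitor, at 185, 184 and 159.7 CPM against 754, 618 and 706 CPM (log2 -1.97 ± 0.15 SE, adjusted p = 1.55e-06). Collagenase D and dispase II freed the cells of both tissues, and the part of the digestion in these values was not tested.

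Of 35 heat shock and chaperone genes 12 fell and 4 rose (45.7% called), while 5 fell and 8 rose with library totals, so the balance turns with the scale, and 8 fell without inguinal library 1. The inducible Hsp70 genes held their call in every alternative tried: Hspa1a was at 19.8, 22.9 and 19.2 CPM in the perivascular and 256, 261 and 307 CPM in the inguinal libraries (log2 -3.74 ± 0.19 SE, adjusted p = 7.16e-08), and Hspa1b at 73.1, 71.6 and 65.3 CPM against 728, 727 and 853 CPM (log2 -3.46 ± 0.19 SE, adjusted p = 1.53e-07). These are near-identical copies side by side on chromosome 17, so reads may be shared between them. Hspb8, a small heat shock protein, was at 22.04, 21.9 and 24.2 CPM against 158, 127 and 135 CPM (log2 -2.62 ± 0.20 SE, adjusted p = 1.37e-06). The groups stood apart for all 3. The windows of 250 bases before the start were searched on both strands for the heat shock element GAANNTTC and TTCNNGAA, where N is any base. It was found in 11 of 27 matched genes of the list (40.7%, against 14.5% of 27025 genes), in 6 of 12 that were called and 5 of 15 that were not. The 2 copies are printed with the element in capitals, because they had the largest changes of the list, from RefSeq GRCm38.p6.
Hspa1a, chr17:34972157-34972406, minus strand: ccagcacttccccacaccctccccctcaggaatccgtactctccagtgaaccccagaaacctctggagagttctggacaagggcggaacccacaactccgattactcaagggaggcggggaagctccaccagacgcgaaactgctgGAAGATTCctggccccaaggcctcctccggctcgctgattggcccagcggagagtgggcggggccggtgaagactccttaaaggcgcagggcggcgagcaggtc
Hspa1b, chr17:34959239-34959488, minus strand: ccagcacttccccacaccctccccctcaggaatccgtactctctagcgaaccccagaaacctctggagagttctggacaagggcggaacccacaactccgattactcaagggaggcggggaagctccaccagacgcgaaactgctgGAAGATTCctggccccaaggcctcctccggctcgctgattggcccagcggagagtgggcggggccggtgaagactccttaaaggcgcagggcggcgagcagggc
In both the element begins 104 bases before the start.

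Of 31 glycolysis genes 4 rose and 7 fell, 35.5% called against 24.9% of all genes (9 rose and 6 fell with library totals, the other direction). Ldhb, a lactate dehydrogenase subunit, was at 122.7, 111 and 115 CPM against 18.4, 20.3 and 14.8 CPM (log2 2.70 ± 0.26 SE, adjusted p = 1.07e-05). Slc2a1, the glucose transporter GLUT1, was at 9.60, 8.23 and 8.49 CPM against 27.4, 29.4 and 20.2 CPM (log2 -1.55 ± 0.19 SE, adjusted p = 6.73e-05), and Slc2a4, the insulin-regulated GLUT4, at 8.41, 10.7 and 10.3 CPM against 1.14, 4.02 and 2.38 CPM (log2 1.96 ± 0.35 SE, adjusted p = 0.00116). So the transporters moved in opposite directions. Of 37 genes for fatty acid and triglyceride synthesis 6 rose and 2 fell, 21.6% called (5 fell without inguinal library 1, 3 without perivascular preadipocyte library 1 and 1 without inguinal library 2, and 11 rose and 1 fell with library totals). Gpd1, which makes the glycerol backbone of fat, was at 39.9, 70.6 and 58.8 CPM against 1.43, 7.82 and 5.66 CPM (log2 3.51 ± 0.49 SE, adjusted p = 0.000206), and Mgll, a lipase, at 42.1, 35.7 and 33.6 CPM against 106, 111 and 115 CPM (log2 -1.58 ± 0.20 SE, adjusted p = 8.03e-05). Of 81 nuclear genes for the respiratory chain 1 rose, 1.23% against 24.9% of all genes (28 rose with library totals and 12 without perivascular preadipocyte library 1, and 2 without inguinal library 3 or perivascular preadipocyte library 3). It was Cox6b2, at 8.26, 7.54 and 6.28 CPM against 2.5003, 2.28 and 2.79 CPM (log2 1.54 ± 0.34 SE, adjusted p = 0.00541). Of 84 genes for ribosomal proteins 1 fell, 1.19% called (3 without perivascular preadipocyte library 1 or 3, with 2 rises without library 1, and 10 rose with library totals). That gene was Rpl39l, at 2.64, 1.97 and 3.28 CPM in the inguinal libraries and with 2 perivascular counts, an inguinal to perivascular ratio of 72.3 (95% counting interval 19.5 to 605). Of 25 cholesterol synthesis genes 11 rose with library totals, but with TMM (8% called) only Acat2 (log2 0.68 ± 0.15 SE, adjusted p = 0.00513) rose and Srebf2 (log2 -0.52 ± 0.16 SE, adjusted p = 0.0286), the master regulator, fell. The call of Srebf2 was lost with library totals (log2 -0.09, adjusted p = 0.661), with the pools as a block (log2 -0.52, adjusted p = 0.0542) and without any 1 of inguinal libraries 1 to 3, perivascular library 1 and perivascular preadipocyte library 2.

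Some abundant genes differed little. The 8 genes of highest level whose 95% interval lay inside -0.5 to 0.5 were Dlk1, P4hb, Nedd4, Pdia3, Cd63, Maged1, Hnrnpk and Calr. P4hb (protein disulphide isomerase) was at 1579, 1534 and 1666 CPM in the perivascular and 1734, 1597 and 1665 CPM in the inguinal libraries (log2 -0.064, 95% interval -0.46 to 0.34). Nedd4, a ubiquitin ligase, was at 1238, 1586 and 1715 CPM against 1634, 1612 and 1616 CPM (log2 -0.099, interval -0.46 to 0.26). Pdia3, Maged1, Hnrnpk and Calr were called higher with library totals, where Calr, a chaperone gene, changed by log2 0.42, adjusted p = 0.0216 against log2 -0.013 with TMM. Xist, the RNA that silences an X chromosome, and Ddx3y, a gene of the Y chromosome, were present in all 6 libraries, as mixed-sex pools would give, and neither passed the test with TMM (log2 0.41 ± 0.27 SE, adjusted p = 0.298 for Xist, log2 0.055 ± 0.30 SE, adjusted p = 0.92 for Ddx3y), while Xist was called higher with library totals (log2 0.83, adjusted p = 0.034) and without the 3 libraries that stood apart (log2 0.78, adjusted p = 0.017).

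The change between depots was then set against that of the preadipocytes, which shared the pools. The difference of the differences, tested in the same fit, passed for 2834 genes (15%). Of the 4687 genes that differed between progenitors, 1341 (28.6%) also passed this test. The depot change had the same sign and was larger between progenitors for 386 of them, the same sign and smaller for 181, and the opposite sign between preadipocytes for 774. Only 314 of the 774 were themselves called between preadipocytes. The genes were picked by their call between progenitors, which favours a larger change there, so 386 and 181 do not measure which stage differed more. Between preadipocytes 8467 genes were called. Leaving out 1 library moved the 2834 to between 1666 and 5231: it was 5231 without perivascular preadipocyte library 1 and 4847 without perivascular library 1. It was 1666 and 1706 without ICAM1+ libraries 2 and 3, 1714 without perivascular preadipocyte library 2, 1812 without perivascular library 3 and 1845 without inguinal progenitor library 3.

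A Hedgehog target was among those that turned. Gli1, higher in perivascular progenitors, was at 18.7, 7.63 and 7.56 CPM in perivascular and 37.4, 39.7 and 39.2 CPM in inguinal preadipocytes, a difference of differences of log2 4.63, adjusted p = 5.71e-05. Every perivascular preadipocyte library was below every inguinal one. Ly6a did not turn: it was lower in the perivascular cells at both stages (log2 -2.20 between progenitors, log2 -7.65 between preadipocytes), and was at 4.33, 3.23 and 4.99 CPM against 897, 813 and 816 CPM in preadipocytes (log2 5.46, adjusted p = 3.14e-06), so the gap was wider between preadipocytes. Col15a1, a basement membrane collagen, was at 45.2, 121 and 92.2 against 3.86, 8.66 and 4.43 CPM in progenitors and at 45.5, 56.7 and 74.8 against 172, 209.8 and 208 CPM in preadipocytes (log2 5.67, adjusted p = 3.72e-05). Vit (vitrin), a matrix protein, was at 27.3, 37.4 and 36.1 against 2.07, 4.18 and 1.72 CPM in progenitors and at 5.75, 4.205 and 2.84 against 26.04, 26.9 and 30.2 CPM in preadipocytes (log2 6.35, adjusted p = 7.66e-06). Gabra2 was at 0.442, 0.44 and 0.644 CPM in perivascular and 0.306, 0.387 and 0.565 CPM in inguinal preadipocytes (log2 -6.80, adjusted p = 7.96e-06), and Il33 at 178, 93.9 and 76.6 CPM against 59.3, 68.9 and 69.5 CPM (log2 4.04, adjusted p = 3.72e-05). By contrast Hoxa10 (log2 0.099, adjusted p = 0.931), Tbx15 (log2 0.18, adjusted p = 0.795), Efemp1 (log2 -0.54, adjusted p = 0.105) and Cd55 (log2 0.021, adjusted p = 0.951) did not pass this test, and their depot changes between preadipocytes were log2 -6.53, log2 -6.19, log2 -3.49 and log2 -3.47.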

How the data were processed

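RNA was measured in cells sorted from digested tissue, with libraries made by an ultra-low-input SMART-Seq kit with poly(A) selection, per the labels' protocols. The submitters' processing notes name STAR 2.5.2a, DESeq2 1.26.0 and the build mm10, while the sources used here do not give the counting tool, its annotation or its strand setting. The authors deposited raw counts per gene and library, and these were used. The labels state that same-numbered replicates came from the same pools of mice, and deviations from the group means correlated at -0.163, 0.105 and -0.201 for the 3 pairs of progenitor libraries.

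Counts of all 12 libraries were fitted with edgeR 4.0.16 (TMM scaling, filterByExpr with a minimum count of 10, glmQLFit with 1 mean per group, two-sided glmQLFTest), tested on simulated data. Alternatives used DESeq2 1.42.0, limma 3.58.1 and R 4.3.3. With 3 libraries a group, p-values rest on the spread between libraries within groups, estimated over all 12 libraries. That spread does not separate pools from sorting and library preparation. The 63 gene lists and the members were chosen with earlier results of these data known, and no list was tested as a set.

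The rule for named genes took the 20 highest and 20 lowest changes among called genes of at least 10 CPM without overlap (gene models passed over), the 12 called genes with the largest difference of CPM, the 8 most abundant genes with an interval inside -0.5 to 0.5, up to 6 called members of each list or the 2 most abundant where none was called, 18 genes whatever their values, and the 10 largest differences between stages among the first set. Of the 204 genes named, 173 come from that rule, which took more genes than the text names. The other 31 fall outside that rule and were chosen after their values were seen. Gene types and exon overlaps come from GENCODE release M21, where 31074 of the 31099 gene identifiers were found, and promoter windows from the RefSeq table for GRCm38.p6. Results for some single genes are not reported here.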

Additional observations from a re-analysis of the deposited data

Results flagged for a closer look

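The depot change differed between progenitors and preadipocytes for 2834 genes by the test of the difference itself, and the 10 below are those with the largest such differences among the genes most changed between progenitors. Gabra2 is described above (log2 -6.80), as are Hhip (4.75) and Fbln7 (3.93).

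Cfd, which encodes adipsin, fell between progenitors and was at 43.1, 93.6 and 90.4 CPM in perivascular and 9.68, 32.8 and 11.3 CPM in inguinal preadipocytes (log2 -9.10, adjusted p = 0.00176). Cxcl13, a B cell chemokine, was at 65.8, 49.9 and 35.9 CPM against 0, 0.228 and 0.164 CPM in progenitors and 29.5, 28.7 and 40.6 against 10.4, 8.36 and 11 CPM in preadipocytes (log2 6.82, adjusted p = 1.58e-05). Shisa3, an antagonist of Wnt and FGF receptors, was at 101, 60.4 and 69.4 against 1.0001, 0.531 and 1.23 CPM and then 99.4, 32.4 and 22.6 against 13.4, 12.8 and 12.9 CPM (log2 4.40, adjusted p = 0.00173). Tnfsf13b, the B cell factor BAFF, was at 12.5, 11.3 and 10.6 against 0.643, 0.304 and 0.082 CPM and then 5.65, 4.06 and 2.04 against 2.39, 2.09 and 2.57 CPM (log2 4.26, adjusted p = 0.000966). Hhip was at 284, 58.3 and 37.2 against 75.6, 83.3 and 101 CPM in preadipocytes, and Fbln7 at 131, 37.3 and 23.1 against 12.99, 16.2 and 16.96 CPM. Perivascular preadipocyte library 1 was the highest of its group for Hhip, Fbln7 and Shisa3, and without it the difference between the stages was log2 6.19, adjusted p = 2.1e-06 for Hhip, log2 5.02, adjusted p = 6e-05 for Fbln7 and log2 5.33, adjusted p = 4.5e-06 for Shisa3. Without inguinal progenitor library 2 it was log2 4.71, adjusted p = 0.0086 for Fbln7 and log2 7.51, adjusted p = 7.5e-05 for Cxcl13, and without inguinal progenitor library 1 it was log2 6.23, adjusted p = 5.5e-05 for Cxcl13 and log2 5.09, adjusted p = 0.0011 for Tnfsf13b. For Cfd it was log2 -8.30, adjusted p = 0.0048 without inguinal progenitor library 3 and log2 -9.87, adjusted p = 0.0038 without inguinal preadipocyte library 2.

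The mast cell protease genes were lower in the perivascular cells at both stages, more so between progenitors. Tpsb2 was at 2.26, 1.91 and 2.09 against 30.5, 32.9 and 16.4 CPM in preadipocytes (log2 -5.17, adjusted p = 0.00851). Cma1 was at 0.0516, 0.0576 and 0.433 against 16.1, 73.9 and 14.4 CPM in progenitors and 5.55, 2.25 and 2.63 against 26.5, 26.7 and 12.7 CPM in preadipocytes (log2 -4.88, adjusted p = 0.0125), and Cpa3 at 0.258, 0 and 0.271 against 13.7, 60.8 and 8.69 and 2.85, 0.978 and 1.66 against 17.8, 21.99 and 13.1 CPM (log2 -3.95, adjusted p = 0.0372). Inguinal progenitor library 2 held the highest of the progenitor values of all 3, and without it the changes between progenitors were log2 -6.34, adjusted p = 4.72e-05 for Cma1 (log2 -9.14, adjusted p = 0.000238 without perivascular library 3) and log2 -5.91, adjusted p = 5.76e-05 for Cpa3. The difference between the stages was log2 -4.01, adjusted p = 0.0028 for Tpsb2, log2 -3.69, adjusted p = 0.015 for Cma1 and log2 -2.65, adjusted p = 0.052 for Cpa3 without that library. It was log2 -6.48, adjusted p = 0.015 for Cma1 without perivascular progenitor library 3 and log2 -5.76, adjusted p = 0.012 for Tpsb2 without perivascular progenitor library 1. For Cpa3 it passed the threshold without perivascular progenitor library 1, inguinal progenitor library 1 or 3, or perivascular preadipocyte library 2, and not without any other 1 library or with the pools as a block (log2 -3.76, adjusted p = 0.058). With limma voom it did not pass for Tpsb2 (log2 -5.30, adjusted p = 0.12), Cma1 (log2 -4.06, adjusted p = 0.11) or Cpa3 (log2 -3.75, adjusted p = 0.2).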

How the results depend on the processing

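The number of genes that differed between the progenitors was 4687, and 7548 with library totals as the scale, where 83.7% of calls were higher. It was 4200 without the filter on low counts, 4611 with a stricter one, 4702 with DESeq2 size factors, 5369 with the DESeq2 Wald test, 6536 with limma voom and 4480 with the 6 progenitor libraries alone. Leaving out each of the 12 libraries in turn gave 3604 to 5761, and 5847 without the 3 libraries that stood apart, a setting chosen after seeing the data. With the shared pool as a replicate block it was 4197. The number whose depot change differed between stages was 2834, 2158 with the replicate block, 8384 with limma voom, 7783 without the 3 libraries and 1666 to 5231 without 1 library. The cause of these moves was not tested. Of 182 called genes named in the text, 173 kept their call under all of these alternatives in which they had an adjusted p. An alternative that filtered a gene out or gave it no adjusted p was passed over for that gene. Calr, not called with TMM, was called with the opposite sign with library totals (log2 0.42). With library totals 44 of 126 counts of list members moved by over 1.5 times, and with the replicate block 6. With 16211157 to 18191251 counts a library, genes near 1 CPM rest on few reads, and 3 pools a group limit the precision of every change.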

Other observations

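Of 14 tested long noncoding RNAs of the Hox clusters and of imprinted regions, where 1 parental copy is expressed, 50% were called, as 4 rose and 3 fell (7 and 2 with library totals, and 2 fell with the pools as a block or without inguinal library 1 or 3 or perivascular library 3). H19, an imprinted RNA of growing tissue, was at 629.6, 631 and 563 CPM in the perivascular and 1997, 1522 and 1741 CPM in the inguinal libraries (log2 -1.53 ± 0.24 SE, adjusted p = 0.000508), and Airn, an imprinted antisense RNA, at 25.6, 22.5 and 23.05 CPM against 11.3, 12.98 and 14.5 CPM (log2 0.87 ± 0.15 SE, adjusted p = 0.000957). Hoxaas2, transcribed from the HoxA cluster, was at 7.64, 7.83 and 6.65 CPM against 1.64, 0.683 and 0.82 CPM (log2 2.79 ± 0.32 SE, adjusted p = 4.37e-05), with 15% of its exon length overlapped by Hoxa3 on the opposite strand. The groups were separate for all 3. Emx2, a homeobox gene of limb girdle and urogenital tissue, was at 0.206, 0 and 0 CPM against 7.93, 9.34 and 13.1 CPM, and its antisense RNA Emx2os at 0.465, 0.518 and 0.433 CPM against 44.5, 42.7 and 45.2 CPM (log2 -6.53 ± 0.28 SE, adjusted p = 1.98e-08).

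Some contractile and tendon genes rose in the perivascular cells and others fell. Of 14 smooth muscle markers 5 rose and 1 fell, with changes from log2 -1.71 to 1.74. Of 14 cartilage and tendon markers 5 rose and 2 fell, from log2 -4.11 to 6.61. Myl9, a myosin light chain of smooth muscle, was at 259, 229 and 218 CPM in the perivascular and 57.6, 87.5 and 65.6 CPM in the inguinal libraries (log2 1.74 ± 0.20 SE, adjusted p = 4.91e-05), and Cnn1 (calponin) at 14.8, 17.96 and 16.99 CPM against 3.43, 7.14 and 4.59 CPM (log2 1.71 ± 0.25 SE, adjusted p = 0.000294). Tnmd (tenomodulin), a tendon gene, was at 9.24, 6.62 and 10.3 CPM against 1.29, 2.05 and 2.71 CPM (log2 2.12 ± 0.46 SE, adjusted p = 0.00446), and Epyc (epiphycan), a small proteoglycan of cartilage, at 37.0, 35.2 and 31.1 CPM against 3.36, 1.97 and 3.94 CPM (log2 3.48 ± 0.28 SE, adjusted p = 2.67e-06), with 40.6% of its exon length overlapped by another gene model. Krtdap, a gene of the differentiating epidermis, was lower, at 12.8, 11.97 and 8.87 CPM against 381, 309.6 and 420.3 CPM (log2 -5.05 ± 0.28 SE, adjusted p = 1.53e-07), and is itself on the keratinocyte list. Lgi2, a secreted leucine-rich protein, was at 313, 48.2 and 55.6 CPM against 2.93, 1.75 and 2.13 CPM (log2 5.93 ± 0.70 SE, adjusted p = 5.53e-05), and log2 4.50, adjusted p = 1.04e-07 without perivascular library 1. The part of other cell types in these values was not tested.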
